A study of Macaca mulatta with 6 samples.

Results

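miR-132 and miR-212 are a pair of related microRNAs cut from neighbouring hairpins, and all their arms were followed here in small RNA libraries from juvenile rhesus monkey testis. The members were chosen by name: every arm of miR-132 and miR-212 in the miRNA count table, which gave 4 of 701 mature miRNAs (listed as mml-miR-132-3p, mml-miR-132-5p, mml-miR-212-3p and mml-miR-212-5p, where mml stands for Macaca mulatta), of which 3 had enough reads to be tested. Precursor genes of the same name were sought in a second table of 3083 small RNA genes, where 1 was found, MIR212.

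The libraries came from whole testis of 6 wild-type animals. Vehicle was infused into 3 of them (animals 7, 9 and 11, aged 24, 14 and 15 months), and the other 3 (animals 8, 10 and 12, aged 22, 14 and 15 months) received follicle-stimulating hormone and luteinizing hormone in pulses, each infusion lasting 48 h. The study asks which testicular miRNAs respond to gonadotropins at the onset of puberty. RNA was taken from the right testis, so all cell types of the organ are pooled, and a difference in the number of cells of a type cannot be told apart from a difference in RNA per cell.

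Gonadotropin receptors signal through cyclic AMP and protein kinase A, which phosphorylates the transcription factor CREB. The genes of miR-212 and miR-132 lie side by side and are transcribed together, and their transcription is known to be induced by CREB in neurons and by luteinizing hormone in granulosa cells of the ovary. The 3p arms of both hairpins are known to share a seed, the stretch that selects target messenger RNAs. CREB activity itself was not measured in these libraries, so the description of the pair as driven by CREB is background and was not tested.

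In rheMac2, the genome build of the miRNA table, the authors placed mir-132 on chromosome 16 from 1845434 to 1845534 and mir-212 from 1845794 to 1845903, with 259 bases between them. In the gene order of RefSeq (assembly T2T-MMU8v2.0) MIR132 and MIR212 are adjacent, between an uncharacterised protein-coding gene, itself next to OVCA2, and HIC1. In the small RNA table, which uses rheMac8, MIR212 (ENSMMUG00000033130) spans 1943569 to 1943664 of chromosome 16 on the minus strand. The gene closest to it there, ENSMMUG00000027093 (1943218 to 1943285, same strand, 283 bases away), carries no name in the table or in the gene name reference. The next closest gene is 320508 bases away. The unnamed gene was therefore followed as the neighbour of MIR212, not under the name of miR-132.

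Total counts per library were 1100190 to 1747355 in the miRNA table and 2146412 to 3170784 in the small RNA table. Of the miRNA libraries vehicle 7 was the odd one out, at 14.77 on the leading principal component (47.5% of the variance), where the other libraries fell between -6.90 and 2.54. Among small RNA genes vehicle 7 was again at one end of the leading component (36.8% of the variance), at 20.73 where the others scored -15.56 to 4.93, and gonadotropin 10 scored 22.17 on the second component (30.7%) while all others scored -8.18 to -1.71. The log2 fold changes of the tested arms and genes were also fitted without each library in turn. Correlations were computed on all 6 libraries only. Of the markers used to check the tissue, the testis-rich miR-508, miR-509 and miR-514a summed to 7464 to 18987 CPM (the share of a library on the counts-per-1e6 scale, after TMM, a scaling that equalises most miRNAs between libraries), and miRNAs of meiotic germ cells (miR-34b, miR-34c and miR-449) to 14.3 to 107 CPM. Neural miRNAs, listed because miR-132 is abundant in neurons, summed to 1697 to 2350 CPM, mostly from miR-128a-3p (535 to 1006 CPM), miR-128b-3p (495 to 942 CPM) and miR-218-5p (180 to 314 CPM), while miR-124a-3p was at 36.9 to 56.3 CPM and miR-9-5p at 21.8 to 77.3 CPM. Of the 20 neural miRNAs listed, 8 had enough reads to be tested. Among the others, miR-137-3p had 0 to 2 reads per library, miR-153-3p 1 to 11, and miR-219 and miR-219-5p, listed separately, each 0 to 17. Whether the same reads were counted under miR-128a-3p and miR-128b-3p, or under both miR-219 names, was not tested. The neural sum may therefore include reads counted under both miR-128 names. The part of neural miRNAs in the level of miR-132 was not tested. Markers of smooth muscle and pericytes (miR-143 and miR-145) summed to 21446 to 50401 CPM. Those of endothelium (miR-126) summed to 5534 to 11264 CPM and those of blood cells to 5140 to 11066 CPM.

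None of the miR-132 or miR-212 arms differed between gonadotropin and vehicle testes in the edgeR quasi-likelihood test, and in each tested arm the groups overlapped. miR-132-3p was the most abundant arm, miR-132-5p came next, miR-212-3p was scarce and miR-212-5p was almost unread. Log2 fold changes of the 3 tested arms lay between -0.14 and 0.15. The 95% intervals of the fold run from 0.537 to 1.54 for miR-132-3p, from 0.648 to 1.89 for miR-132-5p and from 0.524 to 2.03 for miR-212-3p, so smaller changes in either direction lie within them. Of all 433 tested miRNAs, 0.231% (1 miRNA) passed at an adjusted p of 0.05, and the groups did not overlap in 11.3%. None of the 3 arms reached an unadjusted p of 0.05 either, which 26 of the 433 miRNAs (6%) did.

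miR-132-3p is the arm taken as the active guide strand of its hairpin. Vehicle 7, 9 and 11 held 214, 197 and 115 CPM of mml-miR-132-3p, and gonadotropin 8, 10 and 12 held 148, 206 and 123 CPM. The highest and the lowest library were both vehicle libraries, so the gonadotropin values lay wholly inside the vehicle range. The vehicle mean was 175 ± 52.7 CPM and the gonadotropin mean 159 ± 42.3 CPM (SD, n = 3 each). The log2 fold change was -0.14 (SE 0.35, 95% interval -0.90 to 0.62, or 0.537-fold to 1.54-fold; adjusted p = 0.952, edgeR quasi-likelihood test). The sign of this value was not stable: leaving out vehicle 7, vehicle 9 or gonadotropin 12 gave 0.04, 0.05 and 0.03, and scaling by library totals gave 0.12.

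miR-132-5p is the other arm of the same hairpin, often called the passenger strand. Vehicle 7, 9 and 11 held 63.7, 71.6 and 64.6 CPM of mml-miR-132-5p, and gonadotropin 8, 10 and 12 held 77.2, 94.9 and 49.1 CPM. The vehicle libraries lay close together, and the gonadotropin libraries held both the highest and the lowest value. The means were 66.6 ± 4.30 and 73.8 ± 23.1 CPM (SD, n = 3 each). The log2 fold change was 0.15 (SE 0.36, 95% interval -0.62 to 0.92; adjusted p = 0.952, edgeR quasi-likelihood test). It turned to -0.11 without gonadotropin 10, the library with the highest level, and was 0.13 without vehicle 7.

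miR-212-3p shares its seed with miR-132-3p. Only 20, 9 and 10 reads of it were counted in vehicle 7, 9 and 11, and 13, 19 and 16 in gonadotropin 8, 10 and 12. Scaled, these counts of mml-miR-212-3p correspond to 15.9, 6.78 and 7.69 CPM for vehicle and 10.5, 10.2 and 10.6 CPM for gonadotropin. The gonadotropin libraries were nearly level, between the high value of vehicle 7 and the low values of vehicle 9 and 11. Their coefficient of variation, 2.09%, is smaller than the 27.5% that counting alone gives on average over the 6 libraries at these read numbers, so the spread between these 3 animals could not be resolved at this depth. The log2 fold change was 0.04 (SE 0.45, 95% interval -0.93 to 1.02; adjusted p = 0.975, edgeR quasi-likelihood test). Without vehicle 7 it was 0.53 (adjusted p = 0.956), without vehicle 9 -0.09 and without vehicle 11 -0.02, all by the same test. With upper-quartile scaling it was -0.03.

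miR-212-5p, the remaining arm, had 1 read, in vehicle 7, and 0 in the other 5 libraries. A count of 0 allows up to 3 reads, which is 1.72 to 2.73 CPM in those libraries. It was too scarce for the test, and no fold change is given. Intervals and limits from read numbers here cover counting error only, since reads carry no molecular identifiers.

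**Figure D1:**
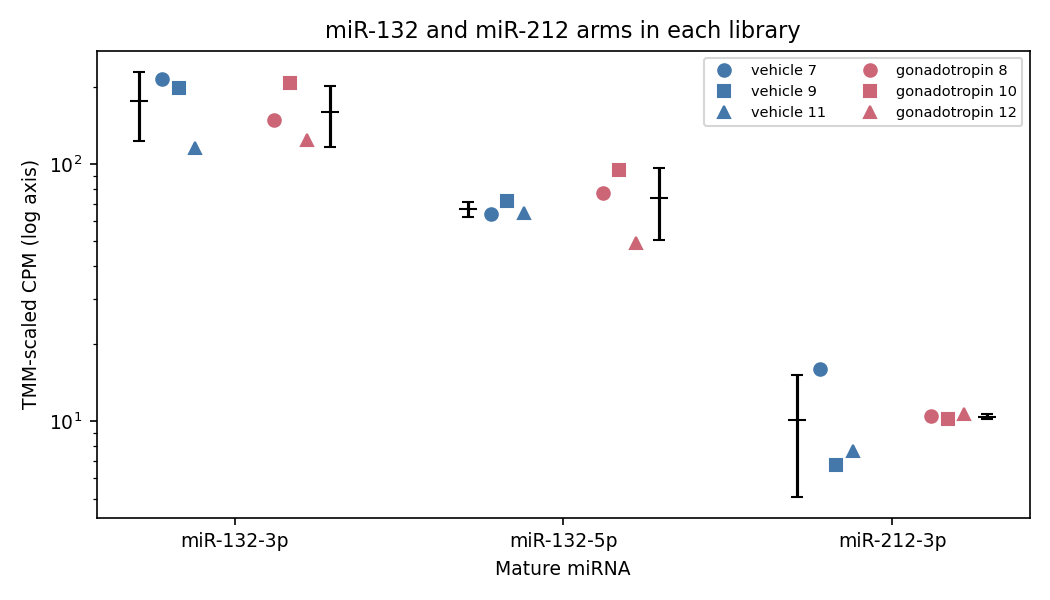
Level of each tested arm in each library, as TMM-scaled CPM on a log axis; blue symbols are vehicle and red symbols gonadotropin libraries, and black bars give the mean ± SD of 3 libraries. The groups overlap for every arm: miR-132-3p spans 115 to 214 CPM, miR-132-5p 49.1 to 94.9 CPM and miR-212-3p 6.78 to 15.9 CPM.

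By mean level over the 6 libraries miR-132-3p was ranked 184 of 433 tested miRNAs (167 CPM), miR-132-5p 248 (70.2 CPM) and miR-212-3p 408 (10.3 CPM). These levels are reads per mature miRNA without correction for length, and mature miRNAs are of nearly the same length. Within the pair the order was the same in all 6 libraries. The neighbours in level were picked as the tested miRNAs next to each member in mean CPM, so their closeness follows from that choice. Around miR-132-3p (SD 43.7 CPM over 6 libraries) they were miR-542-5p (172 CPM), miR-532-3p (169 CPM), miR-340-3p (166 CPM) and miR-769-5p (also 166 CPM). Around miR-132-5p they were miR-296-5p, miR-34a-3p, miR-127-5p and miR-421, at 69.3 to 70.4 CPM. Around miR-212-3p they were miR-523b, miR-1262-3p, miR-377-5p and miR-141-3p, at 9.90 to 10.4 CPM.

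In the small RNA table MIR212, the hairpin that gives miR-212-3p, had the value farthest from 0 among the members, and it did not pass the test either. Its counts were 29, 12 and 16 in vehicle 7, 9 and 11, and 25, 28 and 25 in gonadotropin 8, 10 and 12. On the scaled level this is 12.6, 4.09 and 6.40 CPM against 10.0, 8.95 and 9.66 CPM. Vehicle 7 was above and vehicle 9 and 11 were below all gonadotropin libraries, the same arrangement as for miR-212-3p in the miRNA table. The log2 fold change was 0.32 (SE 0.46, 95% interval -0.74 to 1.38; adjusted p = 0.998, edgeR quasi-likelihood test). It was 0.88 without vehicle 7 (adjusted p = 0.883) and -0.08 without vehicle 9 (adjusted p = 0.979), by the same test, so these libraries set its size and its sign. Without gonadotropin 10 it was 0.35. Among the 717 tested small RNA genes 0.139% passed, 4.46% had an unadjusted p under 0.05, and the groups did not overlap in 8.23%.

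The unnamed neighbour of MIR212 was read 364, 374 and 242 times in vehicle 7, 9 and 11, and 288, 590 and 271 times in gonadotropin 8, 10 and 12. Its scaled levels, 159, 127 and 96.8 CPM in vehicle and 115, 189 and 105 CPM in gonadotropin, overlapped. The log2 fold change was 0.10 (SE 0.38, 95% interval -0.78 to 0.97; adjusted p = 0.998, edgeR quasi-likelihood test). It was -0.22 without gonadotropin 10, the library with the highest level, -0.04 without vehicle 11, 0.01 without vehicle 9 and 0.30 without vehicle 7.

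The second count of the same libraries kept close to the first for the neighbour gene. Its counts were 1.03 to 1.05 times the sum of miR-132-5p and miR-132-3p in every library, with 2129 reads against 2040 in all. For MIR212 the ratio to the miR-212 arms was higher and less even, 1.33 to 1.92, with 135 reads against 88. The ratio for MIR212 averaged 1.44 ± 0.142 in vehicle and 1.65 ± 0.238 in gonadotropin libraries (SD, n = 3 each). Both tables come from the same libraries, so they are a second way of counting and not a second sample. In the authors' deposited table of exact tests, the log2 fold changes were -0.06 for miR-132-3p, 0.22 for miR-132-5p, 0.13 for miR-212-3p, 0.32 for MIR212 and 0.09 for its neighbour, each with an adjusted p of 1.

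**Figure D2:**
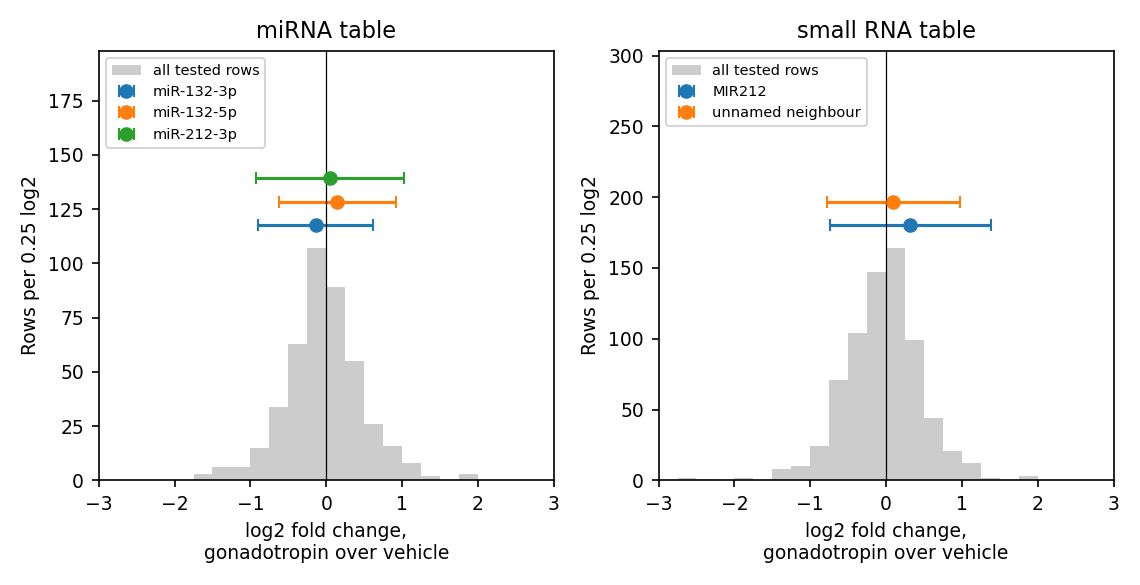
Log2 fold changes of the members with 95% intervals (coloured points, at arbitrary heights) above the distribution of log2 fold changes of all tested rows (grey bars, rows per 0.25 log2 units) in the miRNA table (left) and the small RNA table (right). The x axis is limited to -3 to 3. All intervals of the members include 0, and the points lie from -0.14 to 0.32, near the centre of each distribution.

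Scaling moved the whole miRNA table more than it moved the members against it. The TMM factors of the miRNA libraries did not overlap between the groups. They were 0.840, 0.946 and 0.970 in vehicle 7, 9 and 11, and 1.13, 1.07 and 1.07 in gonadotropin 8, 10 and 12. The sign of a small log2 fold change can therefore depend on the scaling. The median log2 fold change of all tested miRNAs was -0.06 with TMM, -0.05 with the size factors of DESeq2, -0.15 with upper-quartile scaling and 0.19 with library totals. Relative to that median miR-132-3p lay between -0.09 and -0.07, miR-132-5p between 0.19 and 0.21 and miR-212-3p between 0.10 and 0.12 under these 4 scalings. In the small RNA table MIR212 lay between 0.24 and 0.43 above the median of all genes and its neighbour between 0.06 and 0.15.

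Ratios within a library do not depend on scaling, and they are given next for the 2 arms of miR-132. The 5p arm made 23.0%, 26.6% and 35.9% of miR-132 reads in vehicle 7, 9 and 11, and 34.3%, 31.6% and 28.5% in gonadotropin 8, 10 and 12. The 95% Wilson intervals of vehicle 7 (18.9% to 27.7%) and vehicle 11 (30.0% to 42.2%) did not overlap. The SD of the log2 arm ratio over the 6 libraries was 0.34, beside a median of 0.56 over the 121 hairpins with both arms tested, of which 18 had a smaller SD. Between the groups the shares overlapped, with means of 28.5 ± 6.66% in vehicle and 31.4 ± 2.91% in gonadotropin (SD, n = 3 each). The log2 ratio of 5p to 3p was higher by 0.22 in gonadotropin (exact permutation test, two-sided, p = 0.5). With 3 libraries against 3 this test cannot give a p below 0.1, and the p-values of the 4 such tests reported here were 0.8 to 0.9 after Benjamini-Hochberg adjustment (exact permutation tests). Without vehicle 7 the difference was 0.02, and without vehicle 11 it was 0.47.

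The less abundant arm of miR-132, its 5p arm, made 30.0% of the reads on average over the 6 libraries. Of the 121 hairpins, 28 had a larger minor share, and the median over the 121 was 9.20%. The difference in the log2 arm ratio between the groups was larger, in absolute size, in 81 of these 121 hairpins, with a median of 0.36.

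miR-212-3p was a small part of the reads with the shared seed. It made 6.94%, 3.32% and 6.25% of the sum of both 3p arms in vehicle 7, 9 and 11, and 6.60%, 4.71% and 7.92% in gonadotropin 8, 10 and 12. The extreme libraries, vehicle 9 (95% Wilson interval 1.76% to 6.19%) and gonadotropin 12 (4.93% to 12.5%), had overlapping intervals. The log2 ratio of miR-132-3p to miR-212-3p was lower by 0.26 in gonadotropin on average (exact permutation test, two-sided, p = 0.6), and the sign turned without vehicle 9, with a difference of 0.08. Both 3p arms together came to 229, 204 and 123 CPM for vehicle 7, 9 and 11, and to 158, 216 and 134 CPM for gonadotropin 8, 10 and 12. Its difference on the log2(CPM + 1) scale was -0.11 (exact permutation test, two-sided, p = 0.9), and 0.07 without vehicle 7.

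**Figure D3:**
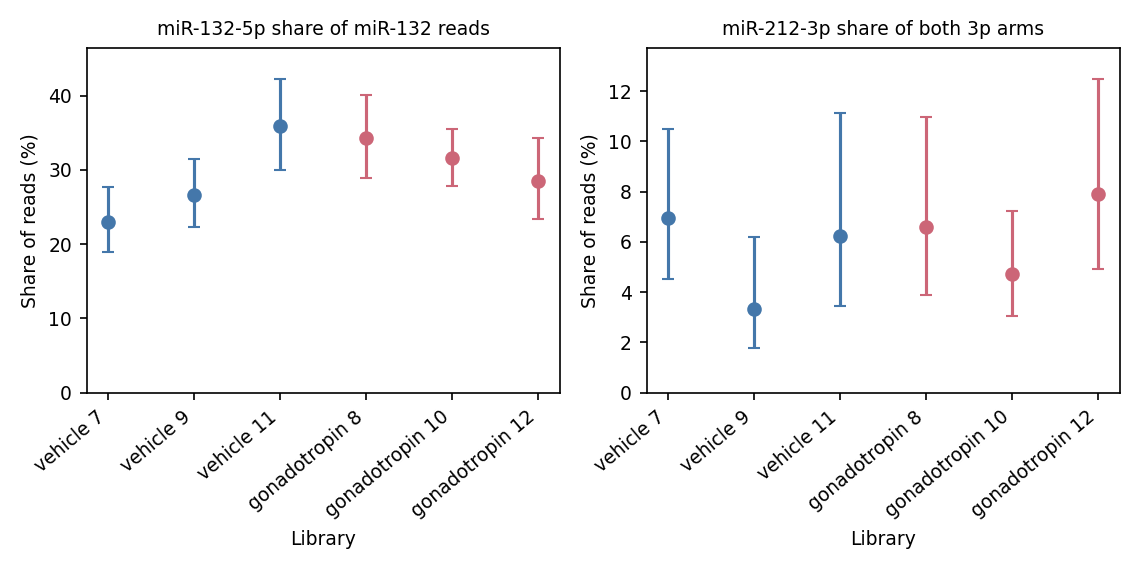
Share of miR-132 reads from the 5p arm (left) and share of miR-212-3p in the reads of both 3p arms (right), in percent for each library; bars are 95% Wilson intervals, blue is vehicle and red gonadotropin. On the left vehicle 7 (23.0%) and vehicle 11 (35.9%) mark the lowest and highest values, and on the right the shares run from 3.32% to 7.92% with wide intervals.

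The animals can also be read as pairs of near age. At 14 months miR-132-3p was 1.04 times as high in gonadotropin 10 as in vehicle 9, at 15 months 1.07 times as high in gonadotropin 12 as in vehicle 11, and in the oldest pair 0.693 times in gonadotropin 8 (22 months) of vehicle 7 (24 months). miR-132-5p gave ratios of 1.33, 0.761 and 1.21 in the same order of pairs, and miR-212-3p ratios of 1.50, 1.38 and 0.656. No arm went one way in all 3 pairs. The 2 arms of miR-132 went opposite ways in the pair at 15 months and in the oldest pair.

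Across the 6 libraries the members followed each other only loosely. Pearson's r of log2 CPM was 0.56 between the arms of miR-132, 0.32 between miR-132-3p and miR-212-3p, and -0.13 between miR-132-5p and miR-212-3p. These correlations describe 6 libraries of differing depth and, for miR-212-3p, counts of 9 to 20. The rows most like each member were picked as the highest r of all tested rows, so high values follow partly from that choice. An r above 0.9 was reached by 0.694% of rows for miR-132-3p, 0% for miR-132-5p and 2.31% for miR-212-3p. The miRNAs most like miR-132-3p in pattern were miR-6827-5p (r = 0.97), miR-432-5p (0.95) and miR-380-3p (0.91), each with its lowest level in vehicle 11 or gonadotropin 12. Of these miR-6827-5p was itself scarce, at 3.08 to 14.3 CPM. In the small RNA table the gene most like the neighbour of MIR212 was mir-432 (r = 0.99), followed by mir-708 and mir-103-2 (both 0.94). miR-132-5p was most like miR-377-5p (0.82), miR-654-5p (0.81) and miR-432-5p (0.77). miR-212-3p was most like miR-106a-5p (0.97), miR-18a-5p (0.97) and miR-34a-3p (0.96), each with its highest level in vehicle 7, the library that stood apart. MIR212 was most like mir-141 (0.99), mir-891a (0.98) and mir-18a (0.98).

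miR-21, described along with miR-132 and miR-212 as induced by luteinizing hormone in granulosa cells, was set beside them. The libraries here are of whole testis after 48 h of both gonadotropins, which is an unlike setting. For mml-miR-21-5p the vehicle libraries 7, 9 and 11 held 18656, 19123 and 17756 CPM and the gonadotropin libraries 8, 10 and 12 held 35666, 23490 and 23953 CPM. Its groups did not overlap, as was the case for 11.3% of all tested miRNAs, and in the edgeR quasi-likelihood test its own log2 fold change of 0.58 had an adjusted p of 0.702. The log2 ratio of miR-132-3p to miR-21-5p was -6.77 ± 0.43 in vehicle and -7.45 ± 0.55 in gonadotropin (SD, n = 3 each), a difference of -0.68. The ratios of the groups overlapped, and the difference did not pass (exact permutation test, two-sided, p = 0.2). The sign was the same without any single library (-0.98 to -0.45).

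A wider list of miRNAs reported to respond to gonadotropins, ACTH or cyclic AMP in gonadal and other steroid-producing cells had 35 tested members besides miR-132 and miR-212. None passed the edgeR quasi-likelihood test, beside 1 of all 433 tested miRNAs. At an unadjusted p under 0.05 in this test were 2 of the 35, both higher, beside 26 of all 433 (6%). Of those 26, 16 were higher and 10 lower. Of the list 16 had higher and 19 lower values, with a median log2 fold change of -0.09 beside -0.06 over all tested miRNAs (0.18 and 0.19 with library totals). The groups did not overlap in 8 of the 35 (22.9%, beside 11.3% of all tested miRNAs), 6 of them higher in gonadotropin. The smallest p-values belonged to miR-494-3p (400 ± 163 and 703 ± 70.6 CPM in vehicle and gonadotropin, log2 fold change 0.81, SE 0.36), miR-370-5p (1.22, SE 0.55) and miR-96 (-0.84, SE 0.42), each with an adjusted p of 0.702 (edgeR quasi-likelihood test). miR-494 and miR-370 lie in the imprinted DLK1-DIO3 domain, and miR-96 belongs to the miR-183 cluster known from sensory cells.

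A short list of miRNAs linked to CREB or to neuronal activity had 4 tested members besides the pair. miR-134-5p, known for its role in dendrites, averaged 157 ± 37.5 CPM over vehicle and 230 ± 40.1 CPM over gonadotropin libraries (SD, n = 3 each), and its log2 fold change was 0.55 (SE 0.32, adjusted p = 0.795, edgeR quasi-likelihood test). miR-9-5p (-0.64, SE 0.47) and miR-9-3p (-0.54, SE 0.44), miRNAs of neural progenitors, had lower values and also did not pass (adjusted p = 0.802 each, edgeR quasi-likelihood test). The remaining member, miR-124a-3p, had a log2 fold change of 0.13 (adjusted p = 0.952, edgeR quasi-likelihood test). The groups did not overlap in 1 of the 4, miR-134-5p, which was higher in gonadotropin (11.3% of all tested miRNAs did not overlap). The median of the 4, of which miR-9 gives both arms, was -0.21. This median turned to 0.05 without vehicle 7 and with library totals.

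**Figure D4:**
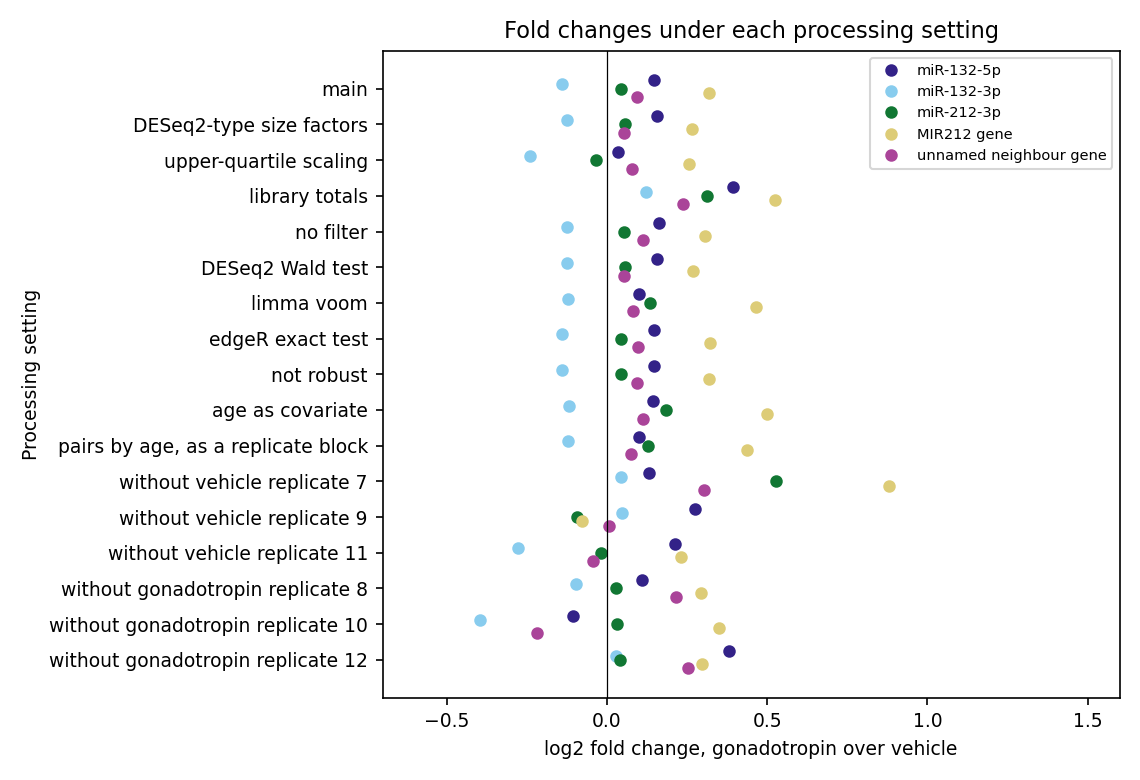
Log2 fold change of each member (x axis) under each processing setting (y axis), where main is TMM scaling with the edgeR quasi-likelihood test on all 6 libraries. Values run from -0.40 for miR-132-3p without gonadotropin 10 to 0.88 for the gene MIR212 without vehicle 7, and none of them passed its test.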

How the data were processed

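Small RNA of 6 testes was measured, 3 per group; titles name Ion Torrent, whereas the labels' protocols describe an Illumina total RNA kit. The authors deposited raw counts per mature miRNA (miRDeep2, rheMac2) and per small RNA gene (HTSeq, rheMac8), per the labels. HTSeq 0.6.1p1, Bowtie 1.1.2, cutadapt 1.9.1 and edgeR are named in the submitters' processing notes; for strand and multiple mapping the setting is not given in the sources used here. Log2 fold changes, p-values and CPM of edgeR exact tests were deposited by the authors as well and served only for comparison.

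Groups came from the titles. Rows were filtered with filterByExpr (minimum count 10; 433 of 701 and 717 of 3083 kept), scaled by TMM and tested with edgeR 4.0.16 (robust quasi-likelihood test, R 4.3.3), with Benjamini-Hochberg adjustment over each table and a threshold of 0.05. The SE is the absolute log2 fold change over the square root of F, and intervals use its t quantile. Ratios used counts + 0.5, and the summed 3p level used CPM + 1, with exact permutation tests (scipy 1.17.1). Likeness is Pearson's r of log2 CPM (prior count 2). Scripts were tested on simulated data. At an adjusted p under 0.05, 44% of simulated 2-fold and 97% of 4-fold changes were found among miRNAs (edgeR quasi-likelihood test). Among small RNA genes 19% and 70% were found, so many 2-fold changes would be missed.

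The members, lists and tests were chosen with earlier results of these data known. The genes named are all members, the 3 smallest p of each list of related miRNAs, the 3 rows most like each member and the 2 rows above and below it in level; level neighbours in the small RNA table, mostly unnamed, are not printed. miR-21-5p and the cell markers were named for comparison. The name of MIR212 came from a table that held 1328 of the 3083 gene identifiers. Sequences were not used here. Alternatives were other scalings, no filter, DESeq2 1.42.0, limma voom (3.58.1), the edgeR exact test, no robust estimation, age as covariate, pairs by age, other pseudocounts and leaving out each library.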

Additional observations from a re-analysis of the deposited data

How the results depend on the processing

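None of the 5 log2 fold changes of arms and genes passed its test under any of 16 alternatives each, 80 values in all, with adjusted p from 0.771 to 1 (edgeR quasi-likelihood test, its exact test, DESeq2 or limma voom). The direction was kept in 69 of the 80 and turned in 11. Library totals turned miR-132-3p to 0.12 and the summed 3p arms to 0.14, and upper-quartile scaling turned miR-212-3p to -0.033. The other turns came from leaving out 1 library, over which the log2 fold changes ran from -0.40 to 0.046 for miR-132-3p, -0.11 to 0.38 for miR-132-5p, -0.093 to 0.53 for miR-212-3p, -0.079 to 0.88 for MIR212 and -0.22 to 0.30 for its neighbour. The summed 3p arms ran from -0.38 to 0.068, and the ratio of miR-132-3p to miR-212-3p from -0.48 to 0.081. The cause of these turns was not tested.

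The labels do not pair the animals, and the replicate numbers of the groups differ. A fit with pairs by age as a replicate block gave -0.12 for miR-132-3p, 0.10 for miR-132-5p and 0.13 for miR-212-3p. It gave 0.44 for MIR212 and 0.075 for its neighbour, and no call changed for these arms and genes.

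Over all miRNAs 1 was called, against 2 with library totals, 3 with DESeq2, 3 with the edgeR exact test, 0 with limma voom, 0 without robust estimation, 0 with age as covariate, 0 with the replicate block and 0 to 4 without 1 library (in the edgeR quasi-likelihood test of all libraries 26 had an unadjusted p under 0.05). Over all small RNA genes 1 was called, against 3 with no filter, 3 with DESeq2, 3 with the edgeR exact test, 0 with limma voom, 0 with the replicate block and 0 to 1 without 1 library (32 at an unadjusted p under 0.05, edgeR quasi-likelihood test). Depth limits the miR-212 arms: miR-212-3p had 87 reads in all 6 libraries, and miR-212-5p, with 1, was not tested.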
